A study of Mus musculus with 4 samples.

Results

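Dense local clusters of CTCF peaks were chosen by measured values, namely the positions of the summits in the conservative peak list of CTCF chromatin immunoprecipitation (ChIP-seq) from mouse heart. A summit is the point of highest enrichment in a peak. Of 51752 distinct autosomal summits, 1503 (2.9%) had at least 4 other summits within 10 kb on the same chromosome and are called clustered. Chained where neighbours lay at most 10 kb apart, they formed 504 loci. The mice were B6CASTF1/J females, adults of 2 months, the first generation from crossing C57BL/6J with CAST/EiJ. Heart biosamples were combined 2 by 2 into pool G and pool H, and 2 technical libraries were made from each pool. The lists hold peaks per pool or over both pools, and both parental alleles of the cross are counted together on mm10. In pooled bulk tissue, binding in fewer cells and weaker binding per cell cannot be told apart, and neither can binding of neighbouring sites on the same or on different molecules. Peak lists carry no expression, so the heart label was not checked against markers.

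CTCF is a zinc-finger protein that binds an asymmetric DNA motif and stops the ring-shaped cohesin complex as it extrudes chromatin loops. Which strand the motif lies on matters for that stop: loops are known to form mainly between sites whose motifs point towards each other. Arrays of CTCF sites in a row are known at several gene clusters, among them the immunoglobulin heavy chain genes and the clustered protocadherins.

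Motifs were read from the GRCm38.p6 sequence within 100 bp of each summit as the 12-base CTCF core with at most 1 mismatch. A core on the plus strand points towards higher coordinates, and one on the minus strand towards lower coordinates. A pair of neighbouring cores is tandem when both lie on 1 strand, convergent when they point towards each other and divergent when they point away from each other. The sequences of 4 loci are shown because they hold the different arrangements. Each is printed 5′ to 3′ along the strand of the core, with the core in capitals and 4 flanking bases on either side in lower case.

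The densest locus lay beyond the last constant gene of the immunoglobulin heavy chain locus, and its cores all pointed towards that gene. Sites 5, 8 and 9 were called only with 2 mismatches allowed, a setting added after the data were seen.
Site 1, chr12:113216114-113216133, plus strand: gaggCCACCAGGGGGTgcac
Site 2, chr12:113217458-113217477, plus strand: ttggACACTAGGGGGCattt
Site 3, chr12:113218082-113218101, plus strand: ctgaCCACACGGTGGCagca
Site 4, chr12:113220049-113220068, plus strand: ctagCCACCAGGGGGCacat
Site 5, chr12:113220672-113220691, plus strand: aattCTACCAGAGGCCacat
Site 6, chr12:113221404-113221423, plus strand: ctgtCCACCAGGGGGCacct
Site 7, chr12:113222212-113222231, plus strand: atggCCACATGGTGGCagca
Site 8, chr12:113222949-113222968, plus strand: atgcTCACACGGGGGCagca
Site 9, chr12:113224392-113224411, plus strand: cagtCCTCTAGAGGGAgccc

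At Slc29a1, which encodes a nucleoside transporter, 7 cores alternated in strand from the first to the last summit.
Core 1, chr17:45579048-45579067, minus strand: caagTCAGAAGAGGGCgcca
Core 2, chr17:45581644-45581663, plus strand: atgaCCACAAGGGGGTgctc
Core 3, chr17:45582926-45582945, minus strand: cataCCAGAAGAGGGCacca
Core 4, chr17:45585039-45585058, plus strand: gtccCCAGTAGGGGGCgctg
Core 5, chr17:45586626-45586645, minus strand: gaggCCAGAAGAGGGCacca
Core 6, chr17:45593809-45593828, plus strand: acctCCAGAAGGAGGCagaa
Core 7, chr17:45595560-45595579, minus strand: ggacCCAGCAGAGGGCgggt

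At Clip2, which encodes a linker protein of microtubules, 2 minus cores were followed by 4 plus cores, so that the locus pointed outwards on both sides.
Core 1, chr5:134486123-134486142, minus strand: ctcaCCACAAGGTGTCgccc
Core 2, chr5:134489836-134489855, minus strand: ggcaCCAGAAGGTGGCgctc
Core 3, chr5:134490702-134490721, plus strand: cctgCCTGAAGGTGGCgctg
Core 4, chr5:134492015-134492034, plus strand: ataaCCACAAGGGGGAggga
Core 5, chr5:134494435-134494454, plus strand: actaCCACCAGGGGGCgcca
Core 6, chr5:134500244-134500263, plus strand: tgcgCCAGCAGGGGGAgcag

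At Hdac7, a class IIa histone deacetylase known for its role in endothelium, all 5 cores lay on the minus strand.
Core 1, chr15:97830990-97831009, minus strand: aggcCCGGGAGGGGGCggtg
Core 2, chr15:97840386-97840405, minus strand: taagCCACAGGAGGGCaggg
Core 3, chr15:97841010-97841029, minus strand: ctgtCCAGTAGGGGGAatca
Core 4, chr15:97849827-97849846, minus strand: ctggCCACCAGAGGGCgtgt
Core 5, chr15:97850667-97850686, minus strand: tccaCCACTAGGGGGAgtta

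The rule fixed how many neighbours a member has, so the counts that follow are descriptions. Just inside the threshold, 1094 summits had 4 others within 10 kb, 335 had 5, 65 had 6 and 9 had 8. Just outside it, 3458 summits had 3 others, and 22250 had none. The median distance from a clustered summit to its nearest neighbour was 1569 bp, and 77 of the 1503 had another summit under 500 bp away. Most loci were small: 164 held 1 clustered summit, whose 4 or more neighbours did not themselves reach the threshold, and 92 held 2. There were 144 loci with 5 or more clustered summits, of which 95 held 5, 33 held 6, 12 held 7, 2 held 9 and 2 held 10. The 340 loci with at least 2 clustered summits had a median span of 7993 bp, from 199 to 30729 bp. Chromosome 11 held the most, with 217 clustered summits in 65 loci, 5.54% of its summits. The share was 4.84% on chromosome 15 and 4.83% on chromosome 19, and the lowest was 1.41% on chromosome 1.

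**Figure D1:**
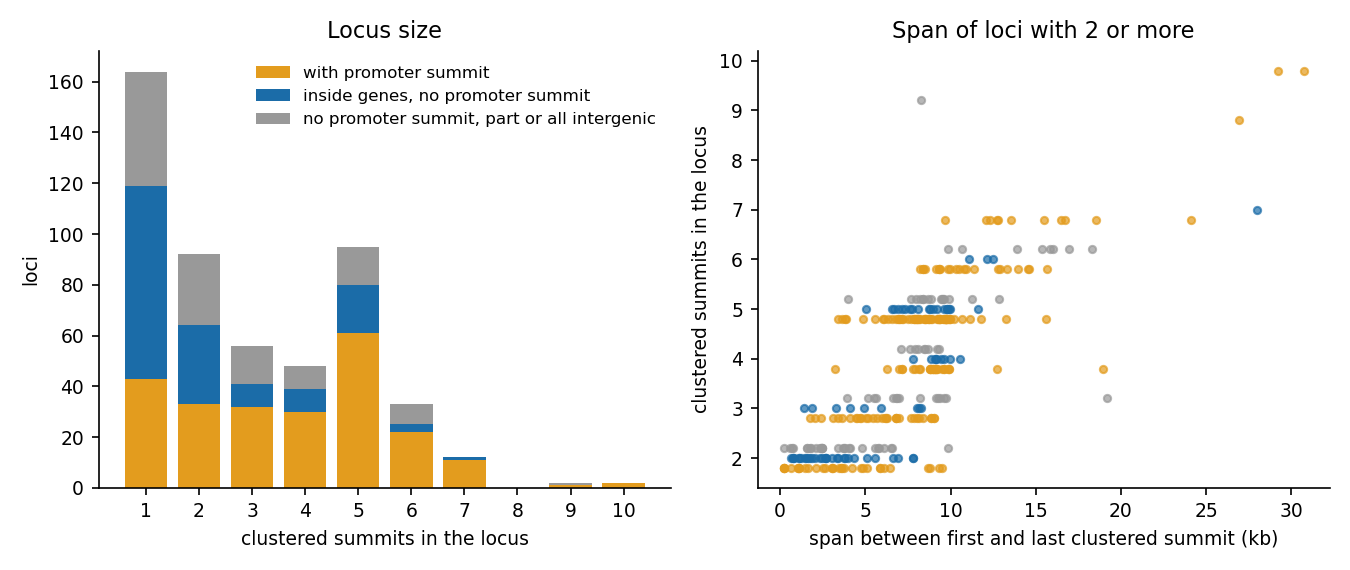
Left, the number of loci (y axis) by the number of clustered summits they hold (x axis), with bars stacked by where the locus lies. Right, the span in kb (x axis) of each of the 340 loci with at least 2 clustered summits against their number (y axis, points shifted slightly by class); the locus of 9 summits spanning 8283 bp stands to the left of the others of its size.

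Clustered summits lay close to genes, and often to more than 1 gene. A protein-coding transcription start site (TSS) was found within 10 kb of 70.1% of clustered summits (95% exact binomial interval 67.7 to 72.4%, n = 1503), against 48.0% of all other autosomal summits (47.5 to 48.4%, n = 50249) and 48.6% of all autosomal summits. At least 2 protein-coding genes had a TSS in that range for 27.1% of clustered summits (24.9 to 29.5%) and for 10.3% of the others (10.1 to 10.6%). Promoter positions, within 1 kb of any annotated TSS, took 28.1% of clustered summits (25.8 to 30.4%), 20.0% of the others (19.6 to 20.3%) and 20.2% of all. Coding exons took 2.66% (1.91 to 3.61%) against 1.28% (1.18 to 1.38%), introns 35.1% (32.6 to 37.5%) against 41.7% (41.3 to 42.2%), and intergenic sequence 29.7% (27.4 to 32.1%) against 33.4% (33.0 to 33.8%). None of these pairs of intervals overlapped. Summits with 3 others (n = 3458), just outside the threshold, were closer to the clustered ones. Coding exons took 1.71% (1.3 to 2.2%) of them, introns 36.7% (35.1 to 38.3%) and intergenic sequence 31.8% (30.3 to 33.4%). Their promoter share was 25.1% (23.7 to 26.6%). Each of these intervals overlapped that of clustered summits. At least 2 protein-coding genes were in range for 19.5% (18.2 to 20.9%) of them, below the clustered interval. The intervals cover counting error only, and summits of 1 locus share their genes, so no test was made. The same rule applied to the list of each pool gave a promoter share of 30.8% in pool G, against 20.4% of the other summits of that list, and of 28.0% in pool H, against 20.2%.

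The nearness to genes was not limited to the summits at promoters: among clustered summits that were not at a promoter, 60.5% (57.5 to 63.4%, n = 1081) had a protein-coding TSS within 10 kb, against 37.6% (37.2 to 38.1%, n = 40201) of the others. It also went by steps with the number of neighbours, from 37.6% with no other summit to 51.5% with 1, 60.7% with 2, 66.6% with 3, 68.6% with 4 and 76.7% with 5, and was lower again at 69.2% (56.6 to 80.1%, n = 65) with 6 and 0% of the 9 summits with 8. Promoter shares along the same steps were 16.9, 21.2, 23.7, 25.1 and 26.3%, then 37.0% with 5 others and 15.4% (7.63 to 26.5%, n = 65) with 6. GC content in the 201 bp around the summit had a median of 52.2% in clustered and 48.3% in other summits. It was 58.2% against 57.7% at promoters and 50.7% against 47.3% elsewhere, so the gap was larger away from promoters.

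**Figure D2:**
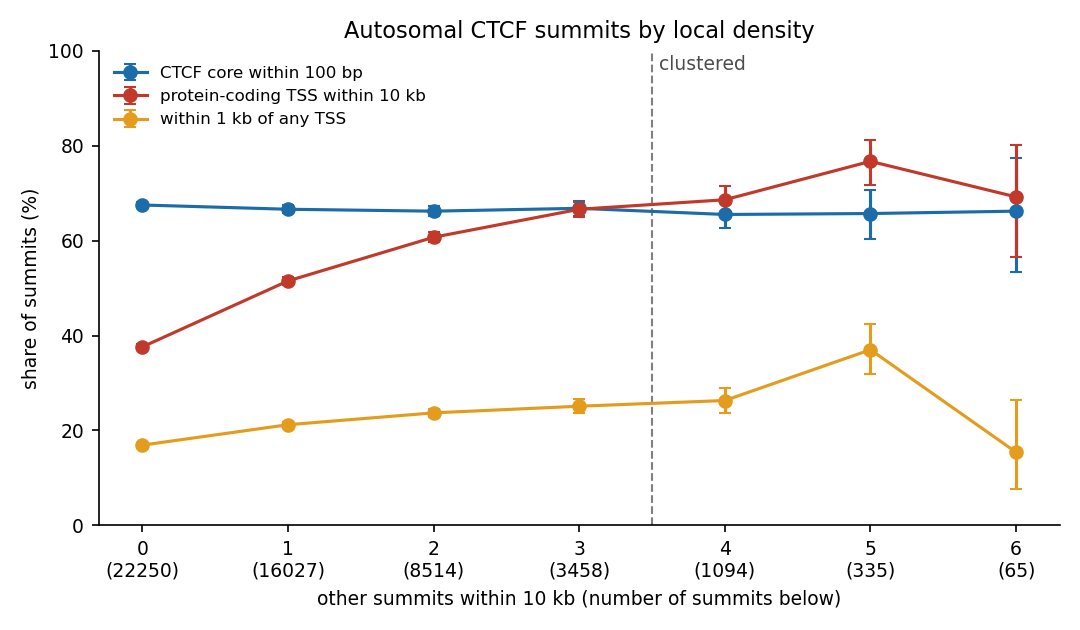
Share of summits in percent (y axis) with a CTCF core within 100 bp, with a protein-coding TSS within 10 kb and within 1 kb of any TSS, by the number of other summits within 10 kb (x axis, with the number of summits); bars are 95% exact binomial intervals and the dashed line marks the threshold. The core share stays between 65.5 and 67.5% while the share near a protein-coding TSS goes from 37.6% at 0 others to 76.7% at 5 and 69.2% at 6; the 9 summits with 8 others, 0% of them at a promoter, are not drawn.

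Of the 504 loci, 235 (46.6%) held at least 1 clustered summit at a promoter, 148 (29.4%) lay inside genes with no promoter summit, and 121 (24.0%) were partly or wholly intergenic with none. The first group held 868 of the clustered summits, the second 321 and the third 314. Counted over protein-coding genes with a TSS within 10 kb, 133 loci had none, the median was 1, 54 had at least 3 and the most was 8.

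The CTCF core was found at clustered summits at a share whose interval overlapped that of the others. It was present at 986 of the 1503 clustered summits, or 65.6% (63.1 to 68.0%), against 67.0% (66.5 to 67.4%) of the other autosomal summits and 66.9% of all. The intervals no longer overlapped this way in 3 other peak sets, where clustered summits had the lower share. In windows 1 kb away from the summits, the core was found at 8.85% (7.46 to 10.4%) of clustered and 5.49% (5.29 to 5.69%) of other summits. For clustered summits this is not plain background, since such a window can hold a neighbouring site. Another summit lay under 1 kb away from 413 of the 1503. The share in these windows was 4.18% at summits with no other within 10 kb and 8.78% at those with 4. An exact core was present at 33.2% (30.8 to 35.6%) of clustered and 33.6% (33.1 to 34.0%) of other summits. At promoters the core was less frequent in both groups, with 49.5% (44.7 to 54.4%, n = 422) of clustered and 44.2% (43.2 to 45.2%, n = 10048) of other promoter summits, against 71.9% (69.1 to 74.5%) and 72.6% (72.2 to 73.1%) of the rest. The pool lists gave 62.5% (60.1 to 64.9%) for clustered summits of pool G, against 66.1% of the others, and 64.5% for pool H, against 66.9%. No core was found at any clustered summit of 74 loci, and every clustered summit had one in 48 loci with at least 3.

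One spelling of the core stood for a large share of the sites. Of the 986 cores at clustered summits, 212 were the word CCAGAAGAGGGC, 21.5% (19 to 24.2%), against 18.8% (18.4 to 19.2%) of 33646 cores at other summits. All 212 copies lay in soft-masked sequence, which marks repeats in the assembly, as did 99.7% of the 6327 copies at other summits. Mouse B2 repeats, a family of short interspersed elements, are known to have spread CTCF sites; which family these copies belong to was not tested. The word was present in 161 loci (31.9%), with at least 2 copies in 46 of them and at most 4 in any locus. Summits with this word had a median signal of 204 and those with other cores 518. Outside clusters the medians were 161 and 447. The pair of sites near Col9a2, a gene of cartilage collagen, both carried it on the minus strand, with signals of 223 and 220. At Slc29a1 it was core 3 and core 5 of the 7 printed above, with signals of 495 and 318, while the plus-strand cores 2, 4 and 6, with other words, had 782, 798 and 105.

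Neighbouring sites were rarely copies of each other. Of 970 pairs of consecutive clustered summits of a locus, 10 (1.03%, 0.495 to 1.89%) shared 10 or more 12-base words between their 201 bp windows, against 1.25% (1.09 to 1.43%) of 16739 consecutive pairs outside loci. Where both had a core, 1 of 450 pairs inside loci and 21 of 7765 outside had the same 20 bases around it. The pair with the most shared words, 100, lay among 5 summits near 1110017D15Rik (chr4:41503308-41507134), and the pair with the same 20 bases near Sgf29, a subunit of the SAGA complex (chr7:126642747-126643455). The 9 sites beyond Igha were not among these pairs, and their 9 printed sequences differ from one another.

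Orientation was read over the 556 pairs of consecutive core-bearing clustered summits of a locus. Tandem pairs were 51.6% (47.4 to 55.8%), convergent pairs 20.1% (16.9 to 23.7%) and divergent pairs 28.2% (24.5 to 32.2%). Among 8216 neighbouring pairs at most 10 kb apart outside the loci, the shares were 54.5% (53.4 to 55.6%), 19.1% (18.3 to 20.0%) and 26.3% (25.4 to 27.3%). Each share inside the loci had an interval that overlapped the one outside. The order of convergent and divergent pairs was the opposite of that at long range: of 5255 neighbouring cores that were separated by 100 kb to 1 Mb, convergent pairs made up 32.0% (30.8 to 33.3%) and divergent ones 18% (17.0 to 19.1%). The tandem share inside loci was 52.3% in the list of pool G and 53.2% in that of pool H. Cores at clustered summits were split evenly, with 493 on the plus and 493 on the minus strand.

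**Figure D3:**
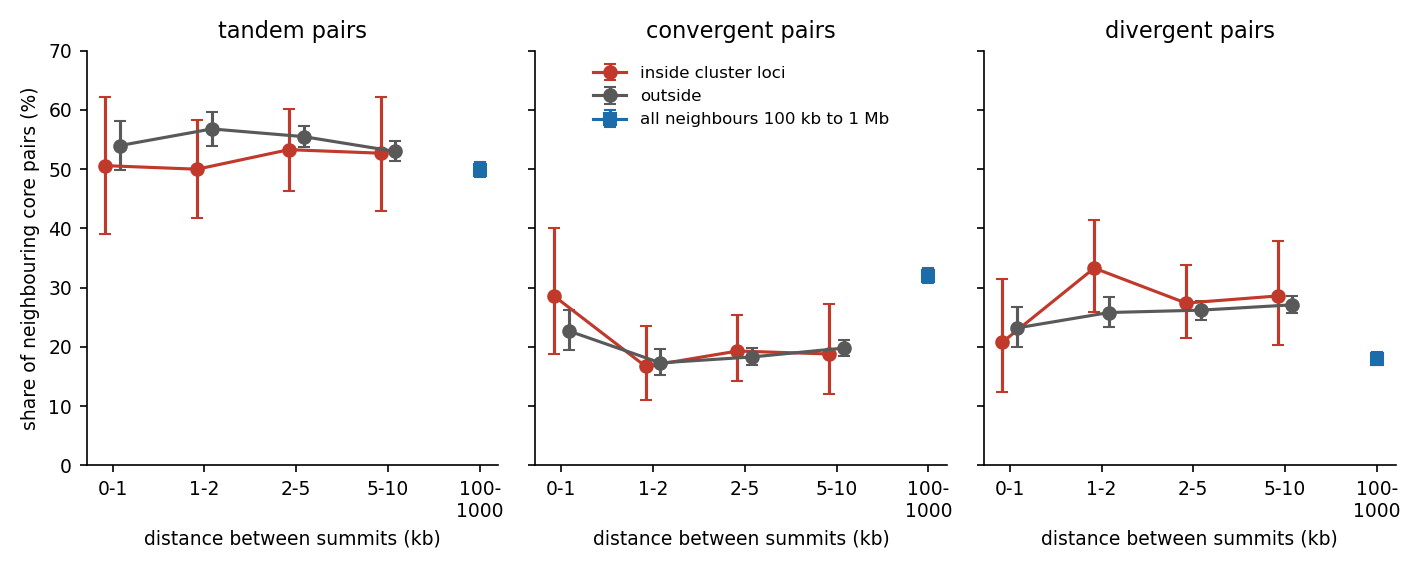
Share of neighbouring core pairs in percent (y axis) that are tandem, convergent or divergent, by the distance between their summits in kb (x axis), inside cluster loci, outside them and for all neighbouring cores 100 kb to 1 Mb apart; bars are 95% exact binomial intervals. Inside and outside intervals overlap in every distance class. Convergent pairs are at 32.0% in the class of 100 kb to 1 Mb. Their highest share at shorter distance is 28.6%, inside loci under 1 kb, with an interval of 18.8 to 40.0% that holds 32.0%.

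Orientation was also read by distance and by surroundings. Pairs under 1 kb apart inside loci were convergent in 28.6% (18.8 to 40.0%, n = 77) and divergent in 20.8% (12.4 to 31.5%), against 22.7% and 23.2% of such pairs outside. Pairs 1 to 2 kb apart were so in 16.7% (11.1 to 23.6%, n = 150) and 33.3% (25.9 to 41.5%), against 17.3% and 25.8% outside. At 2 to 5 kb the shares were 19.3 and 27.4%, against 18.3 and 26.2% outside, and at 5 to 10 kb 18.8 and 28.6%, against 19.8 and 27.1%. Loci with a promoter summit had 48.2% tandem pairs (42.5 to 53.9%, n = 309), those inside genes 55.5% (46.1 to 64.6%, n = 119) and intergenic ones 56.2% (47.2 to 65.0%, n = 128). These intervals overlapped. Where neither core was soft-masked, 55.7% of 262 pairs were tandem (49.5 to 61.8%), against 55.6% of 3756 such pairs outside. At clustered promoter summits, 100 of 209 cores lay on the strand of the nearest TSS, 47.8% (40.9 to 54.8%), against 53.3% (51.8 to 54.7%) at other promoter summits. Of 154 loci with at least 3 cores, 29 (18.8%) had all their cores on 1 strand. They were 18 of the 66 with 3 cores, 7 of 50 with 4, 2 of 22 with 5, 2 of 14 with 6 and 0 of 2 with 7. Strands that fall independently of each other would also give such loci, most often among those with few cores. No share for runs of cores outside loci was computed, so these counts are descriptions.

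The locus on chromosome 12 was the densest, with 9 summits within 8283 bp (chr12:113216118-113224401). It was intergenic and held every summit with 8 others within 10 kb. Igha, the constant gene of immunoglobulin A, has its annotated body 30429 bp beyond it, at the near end of a heavy chain gene array annotated over 2755263 bp, and Tmem121 ends 26595 bp before it. In B cells a group of CTCF sites at this end of the heavy chain locus is known as its 3′ boundary. In heart, its signals from the first to the ninth site were 698, 308, 699, 396, 571, 450, 652, 365 and 468, all above the autosomal median of 295. The pool G values were 377, 116, 355, 203, 296, 237, 332, 189 and 261, and the pool H values 321, 184, 342, 183, 268, 209, 308, 181 and 207. With at most 1 mismatch 6 sites had a core, all on the plus strand. With 2 mismatches allowed, all 9 sites had a best match on the plus strand, within 20.5 bp of the summit. However, at that setting the search also gave a match in 35.6% of windows 1 kb away from clustered summits. Such windows can hold neighbouring sites, and the share was 28.2% for other summits.

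Hdac7 had 10 clustered summits over 29236 bp (chr15:97821440-97850676), in its introns, at its promoters and upstream of it towards Vdr, the vitamin D receptor. Their signals were 282, 541, 181, 76.0, 196, 394, 463, 321, 509 and 626. The 2 highest were the second summit, in an intron and without a core, and the last, upstream of the gene. The 5 cores, printed above, lay on the minus strand, which is also the strand of Hdac7 and Vdr.

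Wbp2, Trim47 and Unc13d shared the widest locus, with 10 clustered summits over 30729 bp (chr11:116081280-116112009). Unc13d encodes a factor of granule release, and Trim47 a ubiquitin ligase of the tripartite motif family. Of the 10 summits, 5 were at promoters, and signals ran from 82.3 to 737 with a median of 224. The strongest lay 638 bp from a Wbp2 TSS and had no core. The 6 cores read minus, plus, minus, minus, plus, plus.

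Pald1, which encodes the phosphatase-like protein paladin, held 9 clustered summits over 26924 bp (chr10:61336304-61363228) inside its body. Signals were 489, 193, 746, 746, 94.6, 95.1, 347, 338 and 71.4. The 2 of 746 lay next to each other, one within 1 kb of a TSS and one in a coding exon, with a plus and a minus core that converge.

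The locus at Slc29a1, with strictly alternating cores, had 7 summits over 16491 bp (chr17:45579064-45595555), between Hsp90ab1, a cytosolic heat shock protein, and Mymx, a factor of myoblast fusion. Signals were 440, 782, 495, 798, 318, 105 and 101. The pair at the Slc29a1 promoter was the weakest, and the last summit lay 1 bp from a TSS. Pool G values were 237, 393, 257, 421, 191, 65.8 and 65.3, and pool H values 199, 388, 238, 379, 128, 38.7 and 35.7, with the same order in both but for the 2 strongest.

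Pink1, a mitochondrial kinase that marks damaged mitochondria, lay in a locus of 7 summits over 24091 bp (chr4:138311760-138335851) with Ddost, a subunit of the oligosaccharyltransferase, and Cda, cytidine deaminase. Signals were 663, 352, 168, 751, 824, 738 and 457. The 6 cores alternated from plus to minus throughout, and the one summit without a core, with 738, lay 13 bp from a Pink1 TSS.

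Tbx2, a T-box transcription factor of the developing atrioventricular canal, lay in a locus of 7 summits over 18521 bp (chr11:85832396-85850917). The summit 155 bp from its TSS had a signal of 125, without a core, and the one in the 3′ UTR had 61.5. Beyond the gene, 4 summits of 647, 797, 703 and 746 stood in a row, the first with a minus core and the others with plus cores. The last, with 146, also had a plus core. The 4 strongest summits thus all lay past the end of the gene.

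The locus at Clip2 had 7 summits over 15501 bp (chr5:134486142-134501643), the first outside the gene and the others in it, with signals of 772, 387, 338, 742, 758, 620 and 289 and no protein-coding TSS within 10 kb. The switch from minus to plus cores fell between the second and the third summit, which lie in the 3′ UTR. Cebpb, a leucine-zipper transcription factor, and Tmem189 shared 7 summits over 13535 bp (chr2:167675345-167688880) with the same kind of arrangement, 3 minus cores followed by 3 plus cores. Its signals were 504, 317, 680, 546, 784, 514 and 116, the weakest 35 bp from the Cebpb TSS and without a core.

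Scarb1, the receptor for high-density lipoprotein, lay at the edge of a locus of 7 summits over 12088 bp (chr5:125266348-125278436), with the last summit inside the gene and signals from 68.1 to 773. Vgll4, a cofactor of TEAD transcription factors, held 7 over 9660 bp (chr6:114919868-114929528) with signals from 79.7 to 802 and only 3 cores. Msl1, a scaffold of a histone acetyltransferase complex, lay at the end of a locus of 7 over 12287 bp (chr11:98783600-98795887) that reached towards Nr1d1, a circadian repressor. The first 5 of these were intergenic and the last was inside Msl1, with signals from 130 to 637 and 2 cores. Myo18a, an unconventional myosin, held 6 over 12113 bp (chr11:77816226-77828339), all intronic and all with a core, 5 of them from 616 to 807 and 1, the last, at 133.

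**Figure D4:**
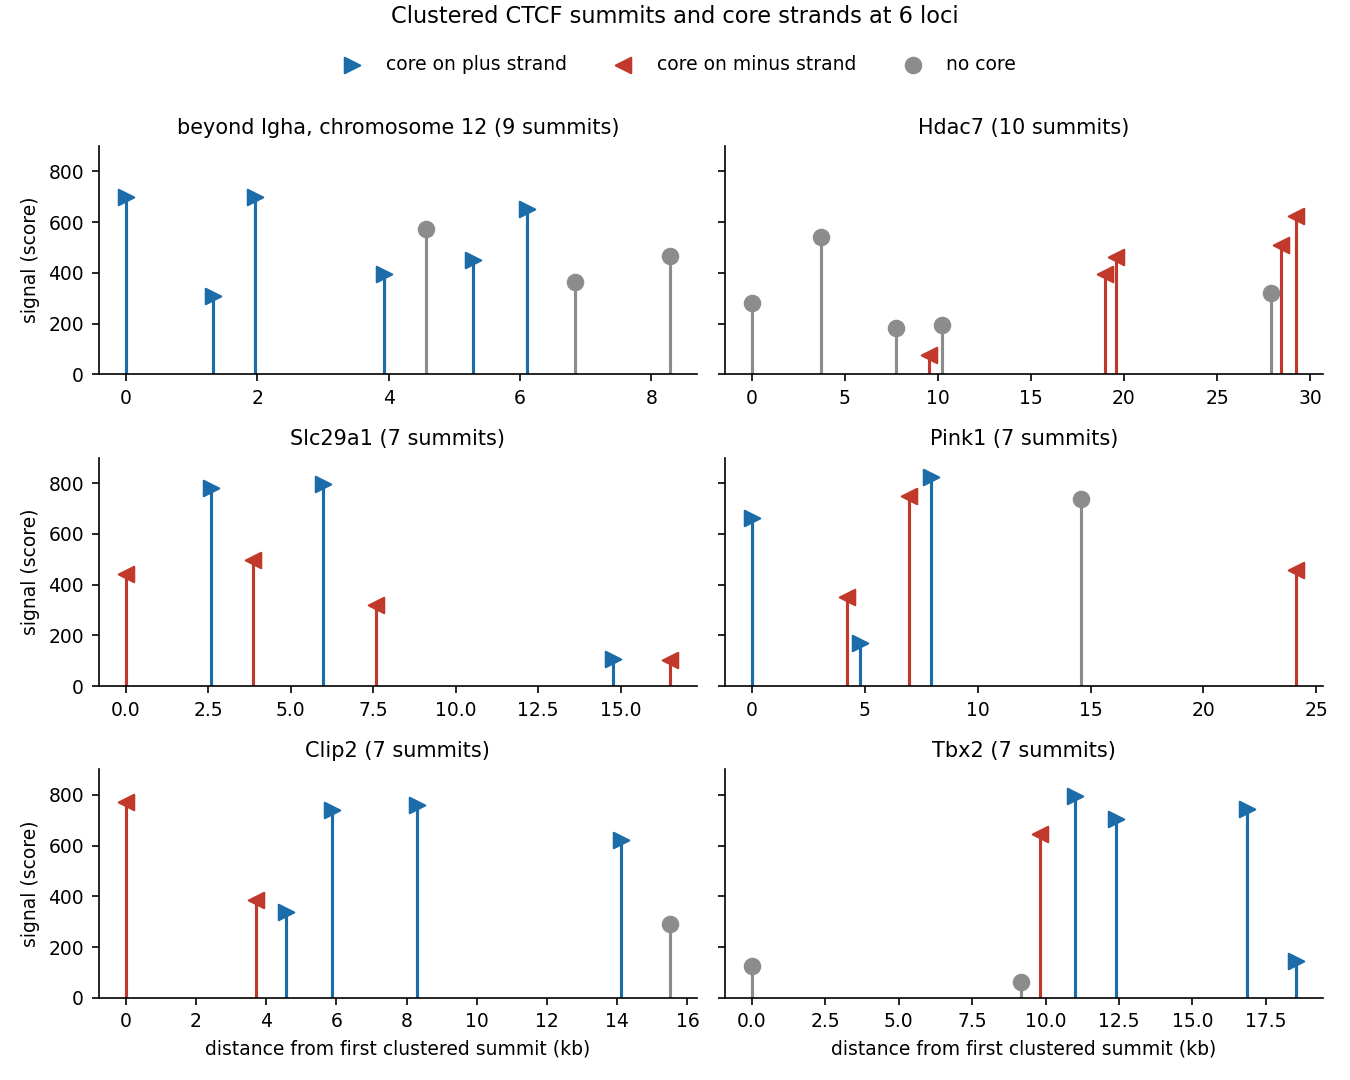
Signal as the caller's score (y axis) of each clustered summit against its distance in kb from the first clustered summit of the locus (x axis) at 6 loci; triangles point along the strand of the core and grey circles have no core with at most 1 mismatch. The 6 cores beyond Igha all point right and the 5 at Hdac7 all point left, those at Slc29a1 and Pink1 alternate, and those at Clip2 turn from left to right.

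Strong and weak summits stood side by side. In the 144 loci with at least 5 clustered summits, the strongest had a median of 6.09 times the signal of the weakest, from 1.31 to 70.8 times, and the ratio was at least 5 in 93 of them. The largest ratio rests on a very low score, so the upper end of this range is uncertain. Signals spread widely outside clusters as well, with quartiles of 137 and 586 at other summits and of 148 and 616 at clustered ones. No such ratio was computed for groups of other summits, so it is not shown to be particular to clusters. In 9 of the 144 every summit was at or above the autosomal median of 295, as at Igha, and in 1 every summit was below it. Signal and detection chose the peaks, so these values are descriptions. The median signal was 320 for clustered and 294 for other summits, 426 for clustered summits with a core and 199 for those without, and 236 at clustered promoters against 359 for the other clustered summits. The strongest clustered summit, with 874 and an exact core on the plus strand, stood beside 2 of 89.2 and 92.0 (chr4:141266436-141273422). The weakest, with 10.3, lay 189 bp from a TSS of 1110038B12Rik near Hspa1b, an inducible heat shock protein (chr17:34947831-34956508). It had no core and no matching summit in either pool's ranked list, and its interval overlapped that of the neighbouring summit of 132. The other 4 of the locus had 132 to 731.

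Values in both ranked lists were found for 1476 of the 1503, with medians of 184 in pool G and 147 in pool H. The score has no stated unit and depth is unknown, so the pools are not compared in level. The pool G to pool H ratio was more than 2-fold off the median of all autosomal summits, 1.23, at 3 clustered summits (0.203%) and at 24 of 49982 others (0.048%). These 3 lay in an intron of Trim47, in an intron near Cox4i1, a subunit of cytochrome oxidase, and at a promoter of Igfbp4, an insulin-like growth factor binding protein. Their pool G values were 103, 96.6 and 106, and their pool H values 41.0, 38.3 and 40.7.

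The loci were found again in the pool lists less often than single summits. A summit counted when its interval overlapped a listed one, whereas a locus needed several summits to meet the rule again. These shares are therefore not directly comparable. Of the 1503 clustered summits, 90.7% (89.1 to 92.1%) were in the thresholded list of pool G and 89.7% (88.0 to 91.2%) in that of pool H, against 91.2% and 89.3% of the others. With the rule applied anew to each pool's list, 359 of the 504 loci (71.2%, 67.1 to 75.1%) were found in pool G, 329 (65.3%, 60.9 to 69.4%) in pool H and 278 (55.2%, 50.7 to 59.6%) in both. Of the 144 loci with at least 5 clustered summits, 118 were found in pool G, 112 in pool H and 97 in both. Of the 12 large loci named here by number of summits and then summed signal, 11 were found in both lists, and the one at Pink1 in pool H and not in pool G.

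**Figure D5:**
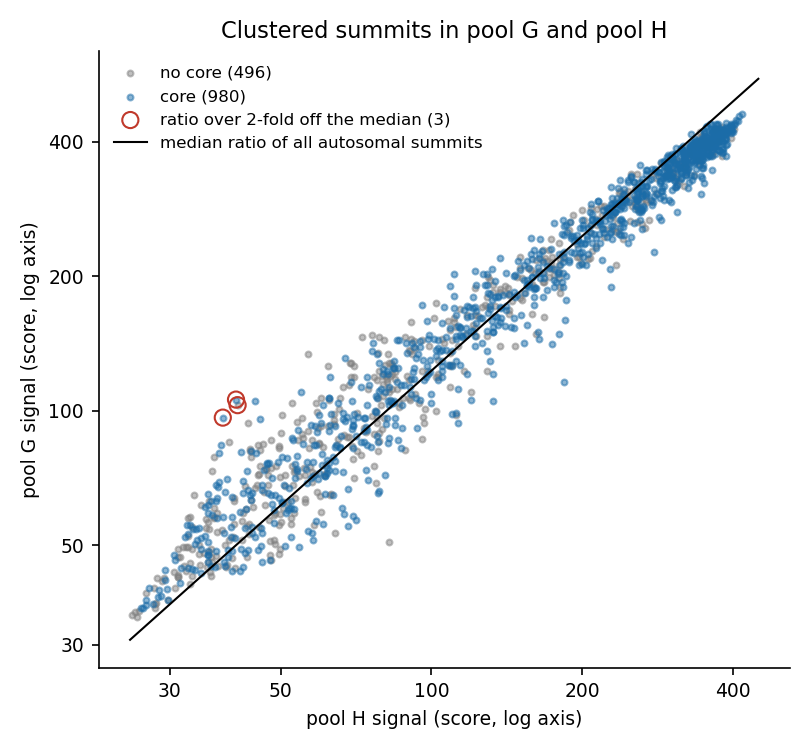
Signal of each of the 1476 clustered summits with a value in both pools, pool H on the x axis and pool G on the y axis, both as the caller's score on log axes; the line is the median ratio of all autosomal summits, 1.23. Points follow 1 band, and the 3 circled summits, at pool H values of 38.3 to 41.0, lie above it.

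Genes near clusters were counted by lists, which were chosen with earlier results of these data known. Over all 20780 autosomal protein-coding genes, 604 (2.91%) had a TSS within 10 kb of a clustered summit, and 66.7% had one within 10 kb of any summit. Of 24 sarcomere genes, 3 were near a cluster (12.5%). Of 23 cardiac transcription factors, 2 were, Tbx2 and Irx5, and of 86 ribosomal protein genes 6 were (6.98%). None of 22 genes of excitation and calcium handling, 20 of energy metabolism, 45 imprinted genes, 67 histone genes or 1127 olfactory receptor genes was. Near any summit were 86.4, 90.0, 84.4, 67.2 and 10.5% of these lists. For the sarcomere, cardiac transcription factor and ribosomal protein lists that share was 83.3, 91.3 and 90.7%, each above the 66.7% of all genes. Of the lists for cell types, smooth muscle and pericytes had 2 of 10 genes, Cspg4 and Smtn, fibroblasts 1 of 12, Pdgfra, endothelium 1 of 12, Egfl7, and skeletal muscle 1 of 13, Tnni2. In the same order, 80, 75, 83.3 and 61.5% of these lists were near any summit. Leukocyte, hepatocyte and neuronal lists had 0 of 12, 0 of 15 and 0 of 16, with 41.7, 33.3 and 68.8% of them near any summit. Counts this small over lists of this size are given as values beside the 2.91% of all genes, with no test.

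The heart genes of these lists were picked out here after their values were seen. Tpm1, tropomyosin of the thin filament, had 2 clustered summits among 6 summits within 10 kb (chr9:67044028-67045121), without cores and with signals of 673, 66 bp from a TSS, and 525. Tnni3, cardiac troponin I, had 3 among 7 (chr7:4513428-4521433), from 85.8, at 617 bp from its TSS, to 797, with 2 plus cores, and all 3 lay at promoters. Myl2, the regulatory light chain of ventricular myosin, had 2 among 6 (chr5:122089106-122095651), 693 and 96.1, with a minus and a plus core. Irx5, an Iroquois factor of the ventricular wall, had 3 among 5 (chr8:92357765-92364588), the one 16 bp from its TSS at 127 without a core and the highest at 437. Outside the heart lists, 1 of 13 CTCF and cohesin genes was near a cluster (7.69%), and 92.3% of them were near any summit. This gene, Smc3, itself a cohesin subunit, was picked out in the same way. It had 5 clustered summits among 7 (chr19:53638250-53648913), from 73.5 to 673, with 4 cores that alternated.

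Pdgfra, the receptor that marks fibroblasts, had 5 clustered summits (chr5:75150208-75157247), with 3 minus cores and a signal of 520 at 108 bp from its TSS. In the smooth muscle list, Smtn, smoothelin, had 3 (chr11:3535467-3540004), from 82.4 at 48 bp from its TSS to 763.

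Among the gene families, 5 of 54 clustered protocadherins (9.26%), 3 of 39 Hox genes (7.69%), 2 of 34 genes of the H2 complex, 2 of 110 keratin and keratin-associated genes, 2 of 385 Zfp genes and 1 of 42 collagen genes were near a cluster. In the same order, 94.4, 82.1, 61.8, 31.8, 60.5 and 85.7% of these families were near any summit, against 66.7% of all genes. The Hox genes were Hoxd8, Hoxd9 and Hoxd10, which pattern the body axis, at a locus of 2 clustered summits (chr2:74694222-74697782) of 237 and 191, neither with a core. H2-DMb1, a subunit of the H2-DM complex that helps load peptides on class II molecules, lay 7868 bp from a locus of 5 (chr17:34164713-34172694) with signals of 155, 262, 618, 640 and 145. Ribosomal protein genes encode structural parts of the ribosome. The clustered summits closest to the TSS of Rpl3, Rpl13, Rpl13a and Rps10 had 160, 104, 125 and 64.1. Each was the lowest clustered summit of its locus, where the highest was 576, 627, 710 and 587. These loci held only 2, 5, 3 and 2 clustered summits, so being the lowest says little. At Rpl3 and Rpl13a the highest was also at a promoter, 341 and 331 bp from a TSS.

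Zfp385a, a zinc-finger protein, shared 6 clustered summits with Gpr84, a receptor of myeloid cells (chr15:103307339-103321317). Their signals were 817, 96.1, 70.5, 720, 699 and 314, and the 5 cores read minus, minus, minus, plus, minus. The summit in the coding exon of Gpr84, with 96.1, was the one without a core. Col4a2, a basement membrane collagen, held 3 in its introns (chr8:11415271-11423322) with 108, 671 and 242. Krtap5-1 and Krtap5-4, proteins of the hair matrix, lay near 4 (chr7:142284116-142294042) with 262, 514, 222 and 454. The remaining family loci had 1 clustered summit each, with a signal of 115 at Zfp219, 156 at H2-DMa and 571 at Rpl38.

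The alpha protocadherins are neuronal adhesion molecules whose variable exons each have a promoter of their own. Their locus held 6 clustered summits over 15667 bp (chr18:36952553-36968220), in 3 pairs, 1 pair for each of Pcdha4, Pcdha5 and Pcdha6. In each pair one summit lay just before the start of the gene, by 95, 232 and 61 bp, and the other after it, by 582, 460 and 589 bp. No summit before a start had a core, and all 3 after it had one, on the plus strand, which is the strand of the genes. Signals before the start were 127, 196 and 172, and after it 310, 129 and 264. The first and the third pair were thus higher after the start and the second was higher before it. Pool G gave 71.6, 126 and 91.0 before and 161, 58.2 and 148 after the start. Pool H gave 54.4, 69.9 and 79.7 before and 138, 69.8 and 114 after it, so that the second pair was even in pool H.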

How the data were processed

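CTCF ChIP-seq peak lists of 4 libraries in 2 pools were used, as deposited by the authors, with coordinates on mm10 per the labels. Caller and aligner were not given in the sources used here. The deposited signal of a peak is a score without a stated unit. A second deposited score is the IDR, scaled and thresholded by the authors at 0.05. The deposited summit offsets are in bases. Which list came from which pool was read from the deposited readme texts, and technical libraries were not separate in any list.

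From 54309 records, 53212 distinct intervals were kept with their strongest signal, 51752 of them on autosomes. Pool values are those of the strongest summit within 100 bp in each pool's ranked list. Motifs were read from GRCm38.p6 (every peak ended within its chromosome) as the exact core or the core with at most 1 mismatch, and where several matched, the fewest mismatches and then the nearest. Annotation was GENCODE M21. Feature classes were assigned in the order promoter, UTR, coding exon, other exon, intron, intergenic. Intervals are exact binomial (Clopper-Pearson, 95%) and cover counting error over summits or pairs. Read depth is unknown. No p-value was computed, since summits are not replicates and the rule used their positions and signals.

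The members and the gene lists were chosen with earlier results of these data known. Named loci were the 12 with most clustered summits (ties broken by the larger summed signal), those with a gene of the family or imprinted lists, those of the strongest and the weakest clustered summit, and the 6 with most cores outside chromosome 18, with the same tie-break; genes were at most 5 per locus, nearest first. Part of these are described, and 1 gene of the lists is withheld and not reported here. Scripts were tested on simulated data. Tables and motif scans were made with pandas 2.3.3 and numpy 2.4.6 in Python 3.11.15, intervals with scipy 1.17.1, plots with matplotlib 3.10.9.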

Additional observations from a re-analysis of the deposited data

Results flagged for a closer look

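Chromosome X was outside the rule. Under the same rule it held 46 clustered summits of 1460 (3.15%), in 9 loci. Of these, 26 lay in 1 locus over Firre, a gene of a long noncoding RNA with a known array of CTCF sites (chrX:50566553-50623312, 56759 bp), where a summit had up to 12 others within 10 kb. Their signals ran from 178 to 588 with a median of 410, and pool G and pool H values from 73.5 to 322 and from 83.2 to 280. A core with at most 1 mismatch was found at 6 of the 26, 5 on the plus and 1 on the minus strand. Over all 46 a core was found at 16. A further 5 lay in 4933407K13Rik, in 2 loci, with signals from 79.1 to 355 and no core.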

How the results depend on the processing

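The number of clustered summits, 1503, was 4961 with at least 3 others, 409 with at least 5, 163 within 5 kb, 7958 within 20 kb and 2639 in the other thresholded list of both pools. The loci, 504, were 1610, 153, 75, 1853 and 848 in the same order. The core share, 65.6%, was 61.8% in that other list, 62.5% in pool G and 62.2% with every record's summit kept, where other summits had 64.5, 66.1 and 66.0%, each above the clustered interval. It was 33.2% for exact cores, 32.5% with a weight matrix, 37.5% with the 8 invariant bases and 88.6% with 2 mismatches, where other summits had 33.6, 32.6, 37.4 and 90.2%. The matrix was built from exact cores outside soft-masked sequence at the non-clustered summits of the same list. It matched 489 clustered summits, close to the 499 with an exact core, and none without a core. It is therefore not independent of the exact-core setting. The tandem share, 51.6%, was 58.0% with at least 5 others, 56.2% within 5 kb and 56.2% without soft-masked cores. The promoter share, 28.1%, was 32.8% with at least 5 others, 31.3% within 5 kb, 30.8% in pool G, 61.8% for a promoter of 5 kb and 19% for protein-coding transcripts, where other summits had 20.1, 20.2, 20.4, 44.4 and 13.9%. The cause of these moves was not tested. The 2-mismatch setting, the one without soft-masked cores and one with all cores within 10 kb of a clustered summit (54.3% tandem) were chosen after seeing the data. No paired analysis was possible because the lists pool the technical libraries and no test was made, and single libraries could not be left out for the same reason.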
